A study of Homo sapiens with 2 samples.

Results

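The 10 genes described here, VEGFA, ADM, SLC2A1, HK2, LDHA, PDK1, CA9, BNIP3, NDRG1 and ANKRD37, belong to the transcriptional response to low oxygen and to the use of glucose. Their exons were taken from the deposited list by position, as the rows that lay inside a fixed window around each gene on the gene's strand (hg19), which gave 99 of the 239322 exon rows. Huh-7, a human hepatocellular carcinoma cell line (passages 15 to 20), was treated for 24 h with 0.1% DMSO (control) or with 0.1 mM BS008, a derivative of the diuretic amiloride. The RNA of each condition was sequenced as 1 library, so no difference has a replicate check and no test between conditions was made. The exon counts came to 55476654 in the control library and 53578432 in the BS008 library.

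Cells sense oxygen through the hypoxia-inducible factors (HIFs). An oxygen-dependent set of hydroxylases marks the HIF alpha subunits, and the VHL ubiquitin ligase then removes them. When oxygen is scarce the alpha subunit persists, pairs with its beta subunit ARNT, binds the hypoxia response element and raises the transcription of genes for glucose uptake, glycolysis, blood vessel growth, mitophagy and acid-base balance. Liver cancer cells commonly run glycolysis at a high rate even in oxygen, and several of these genes are then also driven by other factors. Oxygen is not among the conditions the labels name, so these genes were compared with and without BS008 only.

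The core of the hypoxia response element, read as ACGTG or GCGTG, was searched on both strands of the RefSeq promoters (GRCh38.p14, 250 bases before to 50 bases after each gene start). Of the 10 genes, 8 had a promoter in that table. ACGTG or GCGTG was present in 7 of these 8, and ACGTG in 5, while 48.4% of all 35116 promoters held either motif and 21.4% held ACGTG. A match is a run of letters and not evidence of binding, and a CACGTG run is counted on both strands. The sites below, upstream of the gene start and given in GRCh38.p14 positions, are shown because they belong to genes that were lower (LDHA, CA9, BNIP3), little different (HK2) or higher (ANKRD37) in the BS008 library. Capitals mark the core, which reads CACGT where it lies on the opposite strand.
LDHA (chr11:18394369-18394393, plus strand): ctcccagcgcACGTGgagcagtctg
LDHA (chr11:18394467-18394491, plus strand): cccgactcacACGTGggttcccgca
CA9 (chr9:35673900-35673924, plus strand): gtttccaatgCACGTacagcccgta
BNIP3 (chr10:131982042-131982066, minus strand): cacgcgccgcACGTGccacacgcac
HK2 (chr2:74834069-74834093, plus strand): tgggcgtgcgCACGTcactgatccg
ANKRD37 (chr4:185396688-185396712, plus strand): gtgtttgtgtACGTGcggccgtggc
Counted from the gene start, with -1 as the base just before it, the first base of the core stood at -184 and -86 in LDHA, -18 in CA9, -133 in BNIP3, -48 in HK2 and -143 in ANKRD37. LDHA held 5 matches of ACGTG, BNIP3 2, HK2 2, ANKRD37 3 and CA9 1. ADM and SLC2A1 held 1 match of GCGTG each and none of ACGTG, and PDK1 held neither. Promoters with the core were thus found for genes that were higher and for genes that were lower in the BS008 library. Among those with ACGTG, ANKRD37 alone was higher, and its counting interval of 0.984 to 1.59-fold includes no difference.

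The 10 genes did not move in 1 direction. LDHA, PDK1 and BNIP3 were at least 2-fold lower in the BS008 library, CA9 had reads in the control library alone, and NDRG1 and HK2 were lower by less. VEGFA, ADM, SLC2A1 and ANKRD37 were higher, each by less than 2-fold. Each change is given as a fold, or as the log2 of BS008 over control after 0.5 was added to the library-scaled counts (CPM, the count for a fixed library total). On the log2 scale 4 of 10 genes were lower by 2-fold or more and 0 were higher by 2-fold or more. For comparison, all rows of the series were chained into runs with gaps of at most 10 kb on 1 strand. A run is not a gene, as it can join close neighbours and can cut a gene at a longer gap, as in HK2. Shares of runs are thus not shares of genes. Of the 24004 runs that reached 10 counts in a library, 5.11% were lower by 2-fold or more and 6.62% higher. At 100 counts in the higher library, which leaves out CA9, 3 of 9 genes were lower by 2-fold or more, while 6.98% of 16040 runs were lower and 1283 runs (8%) higher. The median log2 ratio was -0.48 over the 10 genes and 0.0097 over the runs. LDHA, BNIP3 and HK2 have pseudogenes elsewhere in the genome (6, 39 and 1 in GENCODE release 29) that could share reads with them. HK2 was not past 2-fold, and without LDHA and BNIP3 2 of the other 8 genes were.

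**Figure D1:**
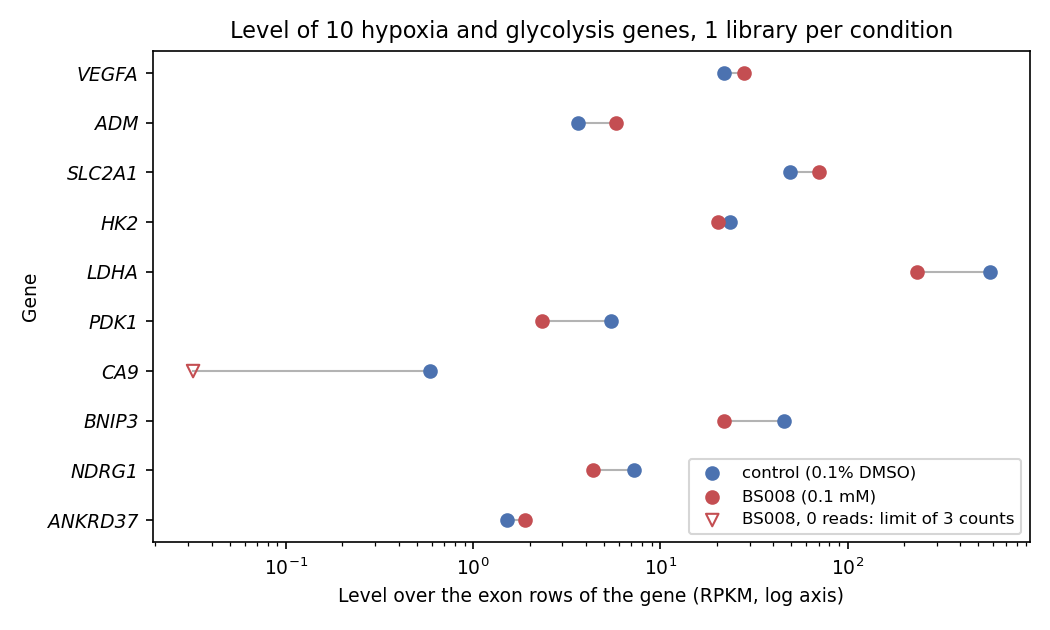
Level of each of the 10 genes (RPKM over its exon rows, log axis) in the control library (blue) and the BS008 library (red), 1 library for each. LDHA lies highest in both, at 576 and 234 RPKM, and the open triangle for CA9 marks the limit of 3 counts because no read was counted there after BS008.

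Levels of different genes were compared per length, as RPKM, the CPM for each kilobase of the gene's exon rows. In control cells LDHA was by far the most abundant at 576 RPKM, followed by SLC2A1 at 49.5, BNIP3 at 45.7, HK2 at 23.6 and VEGFA at 21.97 RPKM. NDRG1 at 7.26, PDK1 at 5.42, ADM at 3.62, ANKRD37 at 1.51 and CA9 at 0.585 RPKM formed the lower end. In BS008-treated cells the order began with LDHA at 234, SLC2A1 at 70.3, VEGFA at 28.1, BNIP3 at 21.9 and HK2 at 20.3 RPKM. ADM at 5.79 then stood above NDRG1 at 4.34 and PDK1 at 2.34 RPKM, with ANKRD37 at 1.88 RPKM and CA9 at 0. The spread between cultures was not measured, so it cannot be said whether neighbours in this order, such as HK2 and VEGFA in control cells, differ in level. The order also depends on the rows that make up a gene. In BNIP3 the last row is 3105 of 3619 bases and had 16.3 RPKM in control cells, where rows 2 to 4 had 229.6 to 358 RPKM. The 10 genes together held 0.210% of all counts in the control library and 0.124% in the BS008 library, and LDHA alone held 66.1% and 45.6% of that sum.

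Of the 99 exon rows, 84 reached 10 counts in a library. Among these, 13 (15.5%) were lower by 2-fold or more after BS008, against 3.79% of all 131330 such rows, and 1 (1.19%) was higher by 2-fold or more, against 3.73%. Of the 57 rows with 100 counts in the higher library, 12 (21.1%) were lower, against 6.19% of 68432 rows, and 1 (1.75%) was higher, against 5.34%. The 13 rows came from 3 genes, with 7 rows of LDHA, 4 of BNIP3 and 2 of PDK1, and the 1 higher row was in ADM. The 0.5 CPM added to each row understates the change of rows with few reads. Without it the 11 tested PDK1 rows were 1.78 to 7.24-fold lower, and the 2 tested rows of CA9 had 20 and 13 control reads and 0 after BS008. With 0.1 CPM added instead, 25 rows were lower and 1 was higher, for which no share over all rows was taken. Rows of 1 gene are counted on the same transcripts, so they are not separate observations. In 9 of the 10 genes the tested rows were all on 1 side of 0, namely all below 0 in LDHA (9 rows), PDK1 (11), CA9 (2), BNIP3 (5) and NDRG1 (16), and all above 0 in VEGFA (7 rows), ADM (2), SLC2A1 (10) and ANKRD37 (4). How often this holds for other genes of the series was not counted. Some of these rows hardly differed, such as the third of ANKRD37 with 11 reads in each library (log2 ratio 0.014). HK2 had 13 rows below and 5 above. Over the 84 rows the median log2 ratio was -0.43, against -0.04 over all rows.

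**Figure D2:**
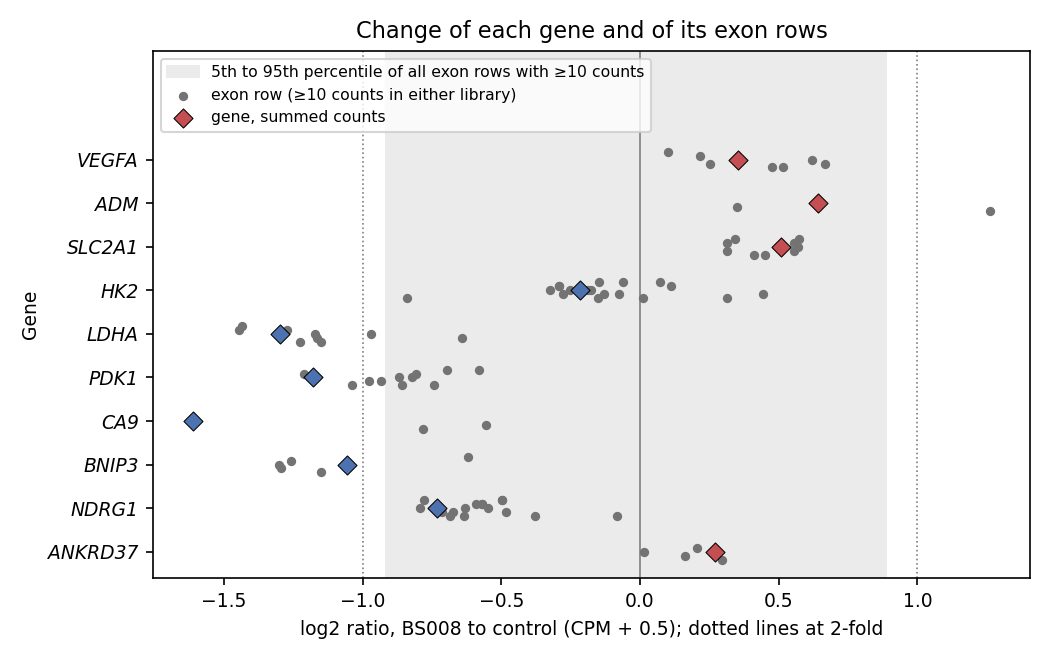
Log2 ratio of BS008 to control (CPM + 0.5) for each gene from its summed counts (diamonds; red above 0, blue below) and for each of its exon rows with at least 10 counts (grey points). The shaded band spans the 5th to 95th percentile of all such rows of the series, from -0.92 to 0.89, and the dotted lines mark 2-fold.

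The secreted factors were both higher. VEGFA (chromosome 6, 43737953 to 43754221, plus strand), the vascular endothelial growth factor that drives vessel sprouting, had 5694 reads in the control library and 7034 in the BS008 library. This is 1.28-fold higher (95% exact binomial interval 1.24 to 1.32, for the counting of reads only). The 7 rows ranged from a log2 ratio of 0.10 to 0.67, all above 0, though the row at 0.10 had only 31 and 34 reads. The last and longest row (43752278 to 43754221) held 67.8% of the reads in control cells (95% Wilson interval, 66.6 to 69.0%) and 63.2% (62.0 to 64.3%) after BS008. Alternative exons near the end of VEGFA encode the heparin-binding part of the protein. The 123-base row there (43748469 to 43748591) had 31 and 34 reads, and the 132-base row (43749693 to 43749824) had 127 and 187. Density was higher on the latter in both libraries, at 17.3 and 26.4 RPKM against 4.54 and 5.16 RPKM.

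ADM (chromosome 11, 10326631 to 10328923, plus strand), which encodes the vasodilating peptide adrenomedullin, was counted 414 times in the control and 639 times in the BS008 library. It was 1.60-fold higher (1.41 to 1.81), the largest increase among the 10 genes. The increase was unequal between its 2 rows. The first (10326631 to 10327645) went from 78 to 218 reads (2.89-fold higher, log2 ratio 1.26) and the second (10327879 to 10328923) from 336 to 421 (log2 ratio 0.35). The first row thus held 18.8% (15.4 to 22.9%) of the ADM reads in the control library and 34.1% (30.5 to 37.9%) after BS008. Neither row has the length of a single ADM exon in GENCODE release 29, so each may span several exons or an intron.

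Glucose enters the cell through transporters and is trapped by hexokinase. SLC2A1 (chromosome 1, 43391046 to 43424847, minus strand), the transporter GLUT1, had 10069 control and 13830 BS008 reads, 1.42-fold higher (1.39 to 1.46). Its 10 rows moved alike, with log2 ratios from 0.31 to 0.57, and the length of each matches an exon of SLC2A1 in GENCODE. Its last row (43391046 to 43392912) held 45.4% (44.4 to 46.3%) of the control and 47.5% (46.7 to 48.4%) of the BS008 reads, the largest shift in this gene. Of the other glucose transporters measured, SLC2A2 (GLUT2, the main transporter of hepatocytes) had 1491 and 939 reads, 1.53-fold lower (1.41 to 1.67), and SLC2A3 (GLUT3) had 83 and 47, 1.71-fold lower (1.18 to 2.49), in a window where 6 of 9 rows have the length of an SLC2A3 exon.

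HK2 (chromosome 2, 75059782 to 75120474, plus strand), the hexokinase typical of tumour cells, differed least among the 6 of these genes that were lower, with 9292 control and 7712 BS008 reads (1.16-fold lower, 1.13 to 1.20). Its first row (75059782 to 75061770) stood apart with 798 and 419 reads, a log2 ratio of -0.84. At the other end was the 12th row (75109247 to 75109366), with 87 and 124 reads and a log2 ratio of 0.44. The first row held 8.59% (8.04 to 9.17%) of the HK2 reads in the control library and 5.43% (4.95 to 5.96%) after BS008. Density along HK2 was uneven in both libraries, and rows 13 to 15 reached 59.6 to 99.0 RPKM in control cells where the next row had 29.9. The part of reads shared with the HK2 pseudogene in this was not tested. HK1, the hexokinase of most tissues, had 6 and 11 reads, so HK2 carried nearly all reads of this pair.

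LDHA (chromosome 11, 18415936 to 18429765, plus strand), which turns pyruvate into lactate, had 76946 reads in the control library and 30191 in the BS008 library. It was 2.46-fold lower (2.43 to 2.49). All 9 rows were lower, from -1.44 to -0.64 on the log2 scale. The value of -0.64 is that of row 2, with 35 and 12 reads, where the added 0.5 CPM understates the change. Without it this row was 2.82-fold lower, the largest fall of the 9 rows. Among rows with at least 100 counts, the fourth (18420978 to 18421095) was lowest with 11776 and 4162 reads (log2 ratio -1.44), and the eighth (18426996 to 18427119) was least changed with 3278 and 1603 (-0.97). Rows 4 and 5 had 1799 and 1656 RPKM in control cells, while rows 6 to 9 had 477 to 578. The share that moved most was that of row 5 (18422384 to 18422557), from 20.8% (20.5 to 21.1%) to 18.9% (18.4 to 19.3%), so the rows were lower together. GENCODE lists 6 LDHA pseudogenes, and how the counting treated reads that fit both a gene and its copies is not stated in the sources used here. LDHB, the other subunit, had 15 and 23 reads in a window that did not pass the length check described with the other pathway genes. The LDHA window, with 7 of 9 rows of matching length, did not pass it either.

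PDK1 (chromosome 2, 173420101 to 173489823, plus strand) is a pyruvate dehydrogenase kinase, which keeps pyruvate out of the mitochondrial oxidation pathway. Its reads numbered 1591 without and 663 with BS008, 2.32-fold lower (2.12 to 2.54). Its only row with at least 100 counts (173460557 to 173463860) had 934 and 425 reads (log2 ratio -1.04), and its share was 58.7% (56.3 to 61.1%) and 64.1% (60.4 to 67.7%). The last 3 rows of the window, of which 1 has the length of a PDK1 exon, had 3, 0 and 4 reads in control cells and 1 each after BS008. The 4 kinases of this family did not move alike. PDK2 had 1151 and 828 reads (1.34-fold lower, 1.23 to 1.47), PDK3 had 1069 and 247 (4.18-fold lower, 3.64 to 4.82), and PDK4 had 0 and 83. Set against the limit of 3 counts in the control library, PDK4 was at least 28.6-fold higher after BS008, and its exact binomial interval, which includes the counting error of the 83 reads, begins at 22.8-fold. The windows of PDK3 and PDK4 did not pass the length check.

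CA9 (chromosome 9, 35673710 to 35681152, plus strand), a carbonic anhydrase of the cell surface that is widely used as a marker of hypoxic tumour cells, had 57 reads in the control library and 0 in the BS008 library. Each of its 11 rows had at least 1 read in control cells, and the first (35673710 to 35674359) had most with 20. A count of 0 allows up to 3 counts, and against this limit in the BS008 library the control reads, taken as counted, make CA9 at least 18.3-fold lower. With the counting error of the 57 reads included, the exact binomial interval begins at 14.4-fold lower. The level in control cells was low at 0.585 RPKM, and the added 0.5 CPM brings its log2 ratio to -1.61. Of its 11 rows, 3 overlap a row on the opposite strand, and the library kit is not stated to keep the strand. The same limit applies to 1 row of SLC2A1 and 1 row of ANKRD37. CA12, a related carbonic anhydrase, had 147 and 53 reads, 2.68-fold lower (1.94 to 3.74).

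BNIP3 (chromosome 10, 133781187 to 133795435, minus strand), a receptor on the outer mitochondrial membrane that recruits autophagosomes, was counted 9166 times in the control and 4245 times in the BS008 library. It was 2.09-fold lower (2.01 to 2.16). The change was unequal along the gene. Rows 1 to 4 had log2 ratios from -1.30 to -1.15, with the lowest in the third (133786538 to 133786622, 1690 and 646 reads), while the fifth and last (133781187 to 133784291) went from 2813 to 1757 reads (log2 ratio -0.62). The last row therefore held 30.7% (29.8 to 31.6%) of the BNIP3 reads in the control library and 41.4% (39.9 to 42.9%) after BS008. At 3105 bases it is much longer than the others, and its density was 16.3 and 10.6 RPKM where rows 2 to 4 had 229.6 to 358 RPKM in control cells. GENCODE lists 39 BNIP3 pseudogenes, and reads shared with them were not tested here. BNIP3L, a related mitophagy receptor, had 2394 and 1209 reads, 1.91-fold lower (1.78 to 2.05), in a window that did not pass the length check. The BNIP3 window, with 3 of 5 rows of matching length, did not pass it either.

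NDRG1 (chromosome 8, 134249414 to 134309547, minus strand), a cytoplasmic protein induced by hypoxia and other stresses, had 3072 control and 1775 BS008 reads, 1.67-fold lower (1.58 to 1.77). All 16 rows were below 0. Among rows with at least 100 counts the range was narrow, from -0.78 in the 15th (134254266 to 134254317, 107 and 49 reads) to -0.50 in the fifth (134274290 to 134274410, 121 and 75). Its longest row (134249414 to 134253770) had 50.4% (48.7 to 52.2%) and 51.9% (49.6 to 54.2%) of the reads, intervals that overlap. ANKRD37 (chromosome 4, 186317840 to 186321780, plus strand), an ankyrin repeat protein known as a HIF target, had 131 and 158 reads, 1.25-fold higher with an interval of 0.984 to 1.59 that includes no difference. Its last row (186320724 to 186321780) held 80.2% (72.5 to 86.1%) and 76.6% (69.4 to 82.5%) of these reads.

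The share of a gene's reads on each row was compared for the 9 genes with at least 100 counts in both libraries. Of their 88 rows, 4 (4.55%) moved by at least 5 percentage points, against 5.01% of the 139404 rows of the series in runs of 2 or more rows with 100 counts in each library. For the series the share was of the reads of the run and not of a gene, so the 2 percentages are not fully alike. The 4 rows were both rows of ADM, which mirror each other, the last of BNIP3 and the main row of PDK1, and so make up 3 shifts. For the PDK1 row the intervals of the 2 libraries, given above, overlap. In control cells 51 of the 88 rows held under 5% of their gene's reads and could not fall by that much. Below this limit, the last row of VEGFA moved most, from 67.8% (66.6 to 69.0%) to 63.2% (62.0 to 64.3%). Rows 2 to 4 of BNIP3 moved by -3.52 to -3.11 points, which mirrors the rise of its last row. The first row of HK2 moved as given above. Junction reads and splicing events were not analysed here.

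Other genes of the pathway were read from windows of their own, in 4 lists with 45 genes. As a check of the windows, the row lengths were compared with the lengths of that gene's exons in GENCODE, and a window passed with at least 80% of its rows, which 21 of the 45 did. Genes in the other windows are named with that limit. Of the 21 genes, 4 were lower by 2-fold or more and 0 higher, with a median log2 ratio of -0.41, and with a pseudocount of 1 there were 3. Of the 44 windows that reached 10 counts, passing or not, 8 were lower by 2-fold or more and 3 higher, with a median of -0.43. Among all runs of rows, which as said above are not genes, 5.11% were lower and 6.62% higher by as much. Of the 10 genes themselves, SLC2A1, HK2, PDK1, CA9 and NDRG1 passed this check, and 80 of all 99 rows had the length of an exon of their gene.

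None of the HIF pathway regulators reached 2-fold, in 4 passing windows or in the 7 of 8 with at least 10 counts. HIF1A, the alpha subunit of HIF-1, had 18786 and 15160 reads (1.20-fold lower, 1.17 to 1.22), and EPAS1, the alpha subunit of HIF-2, had 15661 and 13363 (1.13-fold lower, 1.11 to 1.16). Both alpha subunits were thus slightly lower. ARNT, their common partner, was 1.43-fold higher (1.36 to 1.51) with 2346 and 3246 reads. At the low end among passing windows was EGLN1, the main HIF prolyl hydroxylase, with 2715 and 2168 reads. VHL was lower still with 3810 and 2532 (log2 ratio -0.53), but its window did not pass. HIF activity is set mainly by the stability of the alpha protein, which RNA does not measure.

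Among the other glycolytic enzymes, 2 of the 8 genes in passing windows were at least 2-fold lower. Both make or break fructose-2,6-bisphosphate, the activator of phosphofructokinase. PFKFB4 had a log2 ratio of -3.12, with 2734 control and 280 BS008 reads (9.43-fold lower, 8.34 to 10.7), and PFKFB3 had 1641 and 583 (2.72-fold lower, 2.47 to 2.99). Of all 17 windows 4 were lower by 2-fold or more, 0 were higher by as much, 13 were below 0 and the median log2 ratio was -0.46. The added ones, PGK1 (phosphoglycerate kinase, 28170 and 12569 reads, 2.16-fold lower) and ALDOC (an aldolase, 2562 and 1178 reads, 2.10-fold lower), were in windows that did not pass. GAPDH, named after its values were seen because it is often used as a reference gene, had 258831 and 262634 reads (1.05-fold higher) in a window that did not pass, and GENCODE lists 62 pseudogenes of it.

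**Figure D3:**
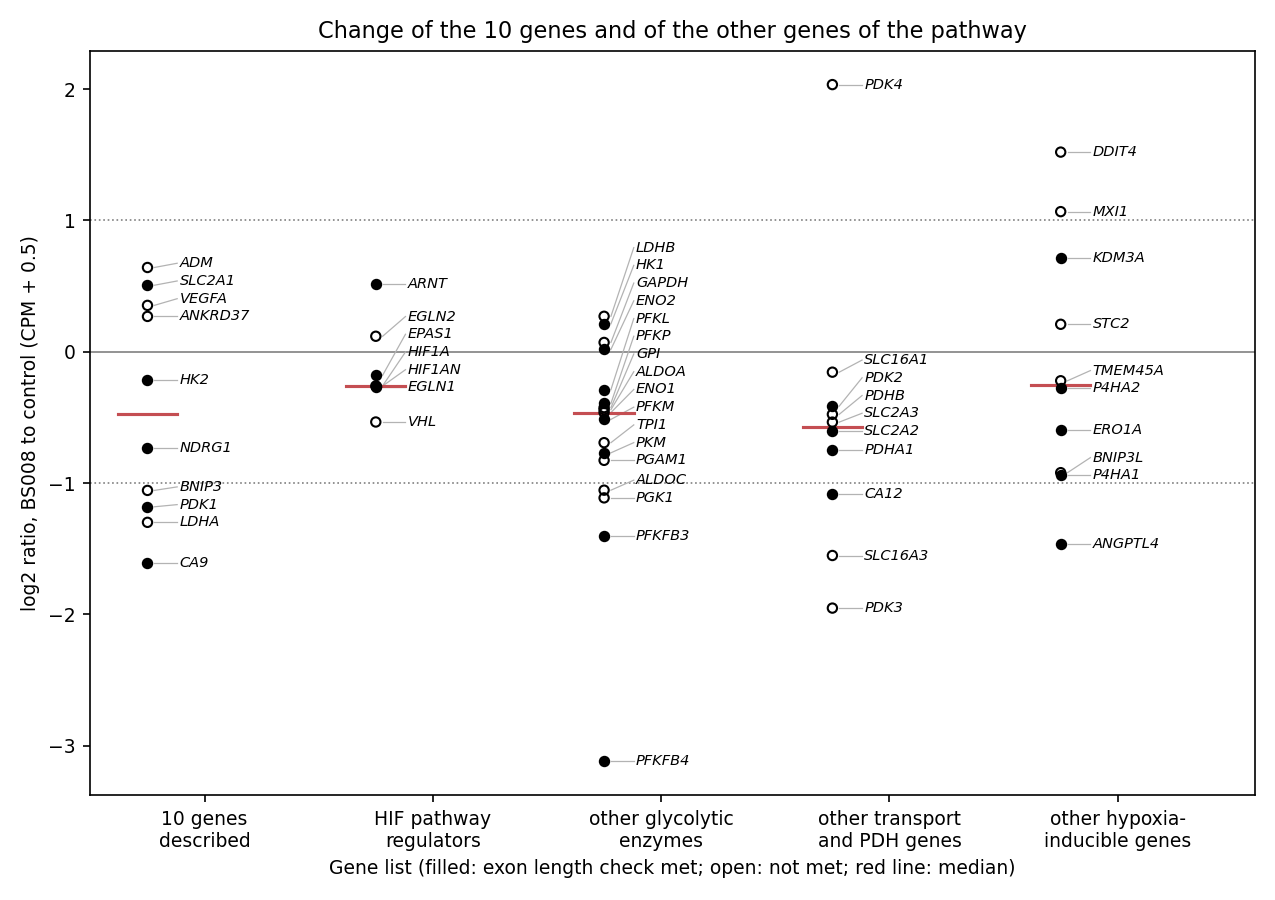
Log2 ratio of BS008 to control (CPM + 0.5) for the 10 genes and for 4 lists of other pathway genes with at least 10 counts in either library (PDH, pyruvate dehydrogenase). Filled points are genes whose window passed the exon length check, open points did not, and red lines are the medians, which lie below 0 in all 5 columns and at -0.48 for the 10 genes.

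In the list of transporters and pyruvate dehydrogenase genes, 1 of 4 genes in passing windows, CA12, was lower by 2-fold or more and 0 were higher. Over all 10 windows 3 were lower, CA12, PDK3 and SLC16A3, and 1 was higher, PDK4. SLC16A3, the lactate exporter MCT4, had 7285 control and 2383 BS008 reads (2.95-fold lower, 2.82 to 3.09) in a window that did not pass. SLC16A1, the lactate transporter MCT1, named after its values were seen because it acts at the same step, had 7902 and 6851 reads (1.11-fold lower, 1.08 to 1.15), also in a window that did not pass. Among the other hypoxia-inducible genes, 1 of 5 in passing windows was at least 2-fold lower, the secreted lipase inhibitor ANGPTL4 with 126 and 27 reads (4.51-fold lower, 2.96 to 7.11). Over all 10 windows 2 were higher by as much, in windows that did not pass. DDIT4, an inhibitor of the growth kinase complex mTORC1, had 2529 and 7059 reads (2.89-fold higher, 2.76 to 3.03), and MXI1, a MYC antagonist, had 978 and 2009 (2.13-fold higher, 1.97 to 2.30). As among the 10 genes, both directions occurred.

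The cells carried the RNA of their labelled origin. Of the hepatocyte markers, ALB had 274038 and 308359 reads, AFP 133300 and 88052, APOB 478822 and 213405, and TTR 570 and 389, whereas PTPRC of leukocytes and HBB of erythroid cells had 0 in both and COL1A1 of fibroblasts had 14 and 6. The window of HBB did not pass the length check, with 2 of 3 rows of matching length. The window of PECAM1 (endothelium) had 66 and 30 reads in 2 rows that match no PECAM1 exon length. It is therefore unclear whether these reads belong to PECAM1. ALB was 1.17-fold higher after BS008, while AFP, APOB and TTR were 1.46-fold, 2.17-fold and 1.42-fold lower. Mitochondrial rows held 11.8% of the counts in the control library and 13.1% in the BS008 library. The part of these differences in the values above was not tested. Leaving mitochondrial rows out of the total shifted log2 ratios by 0.021 before the pseudocount, too little to change the direction of any of the 10 genes.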

How the data were processed

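Per the labels, RNA was extracted with Trizol and made into libraries with the Illumina mRNA-seq kit, and hg19 is the genome build. The aligner, the counting tool and the annotation are not given in the sources used here. The authors deposited raw read counts for each exon row, not normalized, and the same values as RPKM. RPKM recomputed from the counts differed from the deposited RPKM by at most 4.7e-06. The rows carry no gene names.

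Groups were taken from the treatment label. Counts were summed over the rows of each window, and log2 ratios were taken on CPM with a pseudocount of 0.5, which understates the change of low genes. With 1 library for each condition no test was made. Rows needed 10 counts in either library, the highest and lowest rows of a gene were taken from those with 100 in the higher library (the alternative exons of VEGFA, the first row of CA9 and the last rows of PDK1 were named outside this rule, after their values were seen), and a change was called at 2-fold. All 10 genes, their highest, lowest and most shifted rows, the list genes past 2-fold (or the extremes), genes that act at the same step and the HIF subunits are named. Intervals cover counting error only, and reads without molecular identifiers are not independent molecules. The limit for a count of 0 was 3 counts (0.054 CPM in control, 0.056 CPM in BS008). The genes and lists were chosen with earlier results of these data known, and the chained runs after the files were seen. Exon lengths and pseudogenes came from GENCODE release 29 on GRCh38, from which no coordinates were taken, and promoters from RefSeq. The log2 computation was tried on simulated counts, with changes set only in rows of at least 100 control counts. The simulation held no spread between cultures, so it says nothing about rows with few reads or about missing replicates. Python 3.11.15, numpy 2.4.6, pandas 2.3.3, scipy 1.17.1, matplotlib 3.10.9, R 4.3.3 and edgeR 4.0.16 (TMM factors) were used. Alternatives were other normalizations, pseudocounts, minimums, thresholds and gene summaries.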

Additional observations from a re-analysis of the deposited data

How the results depend on the processing

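All 10 genes kept the sign of their log2 ratio under each of 8 alternatives (TMM, median-of-ratios size factors, a total without mitochondrial rows, medians over rows, no overlapping rows, summed RPKM, and pseudocounts of 0.1 and 1), and no value reversed. Most of these could not change a sign. The genes had 0 overlapping rows, and a pseudocount added to both libraries keeps the sign. The other library totals shifted the ratios by at most 0.049 before the pseudocount, less than the smallest change (HK2, -0.22). Only medians over rows and summed RPKM could have changed a sign. CA9, with 57 reads and 0, ranged most, from -4.55 to -0.67. TMM raised the log2 ratios of the 10 genes by at most 0.049. With the median over rows in place of the summed counts, the median of the 10 genes was -0.37 (against -0.48) and 2 genes were at least 2-fold lower, LDHA and BNIP3. This measure adds the 0.5 CPM to each row, which understates the change of rows with few reads. On it PDK1 stood at -0.86 and CA9 at -0.67. Without a pseudocount the 11 tested PDK1 rows were 1.78 to 7.24-fold lower. The cause of the smaller number of genes was not tested. Leaving out LDHA and BNIP3, chosen after seeing the data, left 2 genes and 3 rows past 2-fold. The 14 rows past 2-fold became 26 with a pseudocount of 0.1 and 37 at 1.5-fold. The 4 list genes past 2-fold became 10 at 1.5-fold and 11 when windows that had not passed the length check were added, which was chosen after seeing the data. No paired analysis was possible because each condition has 1 library, and for the same reason no replicate could be left out. Depth limits CA9, ANKRD37 and rows with few reads most, and no depth makes up for the missing replicates.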
